A study of Mus musculus with 2 samples.

Results

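Ptx3, Serpina3n, Cxcl14, Il1rl1 and Lyz2 encode secreted proteins of innate immunity and the receptor for the cytokine IL-33, and are described here in cultured mouse fibroblasts with and without FGF2. They are 5 of 7409 genes that could be named on the arrays, of which 3005 were detected on at least 1 of the 2 arrays. The members were chosen by their ratio between these same 2 arrays and by what their proteins do, so their ratios are a description and support no test. Their probes were found by the NCBI gene number inside the probe identifier, which gave 7 probes, and all 5 genes had a probe that was detected on at least 1 array.

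The FGF2 culture and the control culture were embryonic fibroblasts of NMRI mice, an outbred stock, and the labels used here do not state the age of the embryos. Both had been inactivated with mitomycin C, a crosslinker of DNA that stops division, plated on gelatine at 55000 cells per square centimetre and moved a day later to a serum-replacement medium made for human embryonic stem cells. The FGF2 culture received 40 ng/ml of FGF2, a fibroblast growth factor, and the control culture none, and RNA was taken after 24 h. With 24044 probes on 1 array for each culture, nothing was replicated, no p-value is given, and another difference between the 2 cultures cannot be told apart from FGF2. On the FGF2 array 7424 probes were detected and on the control array 7599, with lowest detected signals of 184.9 and 194.6.

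Pentraxin 3, the product of Ptx3, is a secreted pattern recognition protein that binds microbes and the complement protein C1q, takes part in hyaluronan-rich matrix, and is known to bind FGF2 itself. Serpina3n is a mouse serine protease inhibitor whose known targets include granzyme B and leukocyte elastase, and Cxcl14 is a chemokine made by epithelia and fibroblasts. Lyz2 encodes lysozyme, an enzyme that cuts bacterial cell walls and is abundant in macrophages. Il1rl1, also called T1 or ST2, encodes the receptor for IL-33 and has a membrane form and a secreted form that binds IL-33 away from the cell. The secreted form was first found in fibroblasts as a product induced by serum and oncogenes. In rodents its messages are known to start at different promoters, with the upstream one described in mast cells and the downstream one in fibroblasts.

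The promoter bases of Il1rl1 and Ptx3 are shown because these were the member that was higher and the member that was most reduced. RefSeq's annotation of GRCm38.p6 lists 2 starts for Il1rl1 on the plus strand of chromosome 1, 10.059 kb apart, and 1 start for Ptx3 on the plus strand of chromosome 3. The 250 bases before each start are given 5′ to 3′, with capitals marking a match to a motif searched below. The windows are chr1:40429320-40429569 for the upstream and chr1:40439379-40439628 for the downstream start of Il1rl1, and chr3:66219637-66219886 for Ptx3.
Il1rl1, upstream start: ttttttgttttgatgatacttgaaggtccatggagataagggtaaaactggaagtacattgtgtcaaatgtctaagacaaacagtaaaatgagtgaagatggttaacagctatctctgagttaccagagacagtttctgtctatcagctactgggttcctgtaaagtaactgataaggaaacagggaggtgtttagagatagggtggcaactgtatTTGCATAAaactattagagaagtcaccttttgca
Il1rl1, downstream start: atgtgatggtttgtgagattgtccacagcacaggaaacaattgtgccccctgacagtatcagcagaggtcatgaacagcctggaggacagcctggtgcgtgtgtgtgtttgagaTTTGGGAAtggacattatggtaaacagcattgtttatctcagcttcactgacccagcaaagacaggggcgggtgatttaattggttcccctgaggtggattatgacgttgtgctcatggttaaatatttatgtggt
Ptx3: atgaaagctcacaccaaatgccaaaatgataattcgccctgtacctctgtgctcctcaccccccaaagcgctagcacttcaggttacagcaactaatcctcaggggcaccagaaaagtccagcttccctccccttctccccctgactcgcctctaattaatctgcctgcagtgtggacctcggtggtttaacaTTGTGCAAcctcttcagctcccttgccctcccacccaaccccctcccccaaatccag

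On both strands the windows were searched for 6 motifs. The short C/EBP motif TTNNGNAA, which 36.8% of 32851 RefSeq promoter windows of the same length hold, matched in each of the 3 windows shown. The first base of the match lay 34 bases before the upstream and 136 before the downstream start of Il1rl1, and 57 bases before the start of Ptx3. None of the 3 held the NF-kappaB motif GGNNTTTCC (4.93% of all windows), the AP-1 motif TGANTCA (6.75%), the STAT motif TTCNNNGAA (7.02%), the ETS motif CCGGAA (12.03%) or TATAAA (12.4%). Of the other members, Serpina3n held GGCTTTTCC, a match to the NF-kappaB motif, from 170 bases before its start, and 2 C/EBP matches, at 227 and 56 bases. Cxcl14 held a STAT match at 191 bases and no C/EBP match, and Lyz2 a C/EBP match at 55 bases. No matches overlapped. A match is a run of letters and not a site shown to be bound.

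**Figure D1:**
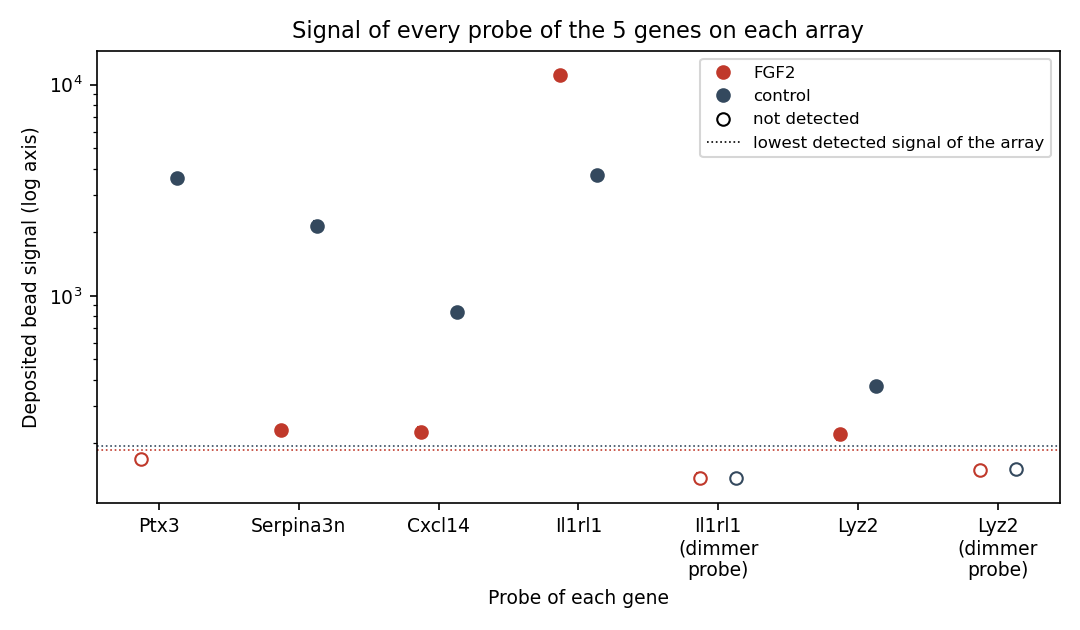
Deposited bead signal (log axis) of the 7 probes of the 5 genes, on the FGF2 array (red, left) and the control array (dark, right), with bars for the bead standard deviation, which are smaller than the points. Ptx3, Serpina3n, Cxcl14 and Lyz2 were lower with FGF2 and the brighter Il1rl1 probe was higher, while the dimmer probes of Il1rl1 and Lyz2 lay under the lowest detected signals (dotted lines) on both arrays.

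Ptx3 had the largest reduction of the 5 genes. Its only named probe (scl019288.3_2-S) gave a deposited signal of 169.3 ± 6.2 in the FGF2 culture, against 3612.6 ± 104.3 in the control culture, where ± is the bead standard deviation within an array. In control it was among the brightest probes, with the rank 362 of 24044, and with FGF2 it was not detected, with a score of 0.942 where 0.99 was required. After quantile normalization of the 2 arrays the ratio is therefore a bound. On these values Ptx3 was at least 17.4-fold lower with FGF2 (log2 ratio −4.12). The bound depended on the scaling and was 16.5-fold with median scaling. The place of Ptx3 among the lowest of the 3005 genes is not determined. In RNA from a whole culture, fewer cells that make a transcript and less of it per cell cannot be told apart.

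Serpina3n (scl020716.5_261-S) gave 231.8 ± 8.0 with FGF2, against 2148.3 ± 122.8 in control. It was detected on both arrays, but its signal with FGF2 was little above the lowest detected. The reduction was 8.04-fold (log2 ratio −3.01 ± 0.096, the combined bead error of the arrays). That error, here and below, is taken from deposited signals with background included. With background subtracted it was 0.15 for Serpina3n. Of the 3005 genes 6, Serpina3n included, were as low or lower with bounds taken at their value. Serpina3g, a related serpin of leukocytes that inhibits cysteine cathepsins, was also lower, at 3123.0 with FGF2 against 8449.8 in control (2.34-fold, −1.23 ± 0.061). The clade A3 serpins are close relatives, and whether a probe also binds the message of a neighbouring family member was not tested. The probes of Serpina3k and Serpina3m were not detected on either array.

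Cxcl14 (scl0057266.1_102-S) gave 227.3 ± 10.9 with FGF2, against 840.6 ± 28.2 in control, a 3.21-fold reduction (−1.68 ± 0.084). With background subtracted its bead error was 0.18. Cxcl14 was the dimmest in control of the 3 members that were at least 2-fold lower, and 27 of the 3005 genes were as low or lower.

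Lyz2 was under 2-fold. Its brighter probe (scl0017105.1_34-S) gave 220.2 ± 11.9 with FGF2, against 374.8 ± 13.6 in control, which is 1.50-fold lower (−0.58 ± 0.094), and 205 of the 3005 genes were as low or lower. Its other probe gave 148.8 with FGF2 and 150.5 in control and was not detected on either array, with scores of 0.834 and 0.801. Lyz1, a near-identical neighbouring gene, was not detected on either array. Whether the Lyz2 probe also binds Lyz1 was not tested.

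Il1rl1 was the member that was higher. Its brighter probe (scl0017082.1_132-S) gave 11177.3 ± 400.4 with FGF2, against 3732.3 ± 134.8 in control, 3.39-fold higher (1.76 ± 0.073). It was the probe with rank 61 of 24044 on the FGF2 array and rank 347 on the control array, so it was bright in both cultures. Of the 3005 genes, 10 were as high or higher, Il1rl1 included. Its other probe (scl017082.5_21-S) gave 137.3 and 137.5, with scores of 0.671 and 0.618, and was not detected. Whether the probes measure the membrane form, the secreted form or both was not determined.

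**Figure D2:**
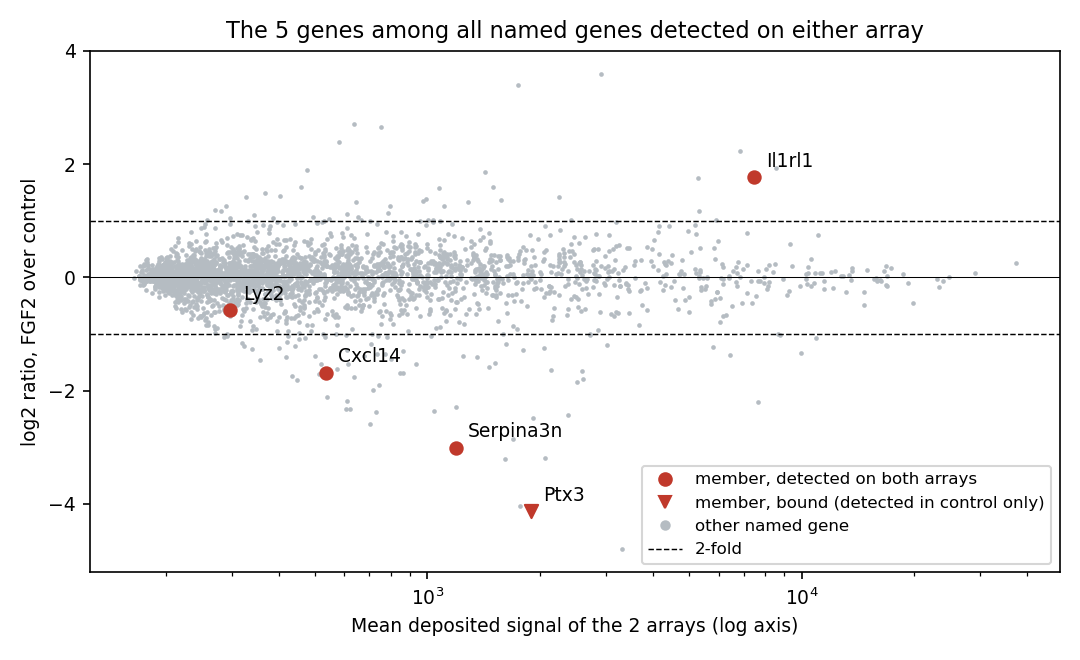
The log2 ratio of FGF2 over control against the mean deposited signal of the 2 arrays (log axis) for the 3005 named genes detected on either array, with the 5 genes in red and dashed lines at 2-fold. Ptx3, at −4.12, is a bound, Serpina3n, Cxcl14 and Lyz2 lie at −3.01, −1.68 and −0.58, and Il1rl1 lies at 1.76 among the brightest genes.

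Of the 5 members 1 was at least 2-fold higher, 3 were at least 2-fold lower and 1 was under 2-fold, and their median log2 ratio was −1.68. Among all 3005 named genes 4.06% differed at least 2-fold, 1.46% higher and 2.60% lower, and the median was 0.028. Nothing is read from the members' count against this background, since the same ratios chose them. Of the differing genes 36.1% were higher, against 19.9% with signals as deposited. The share was 50.4% in the authors' value table, where 2639 genes have a value for both arrays. Requiring detection on both arrays, without that table, gave 37.6%. The genes nearest 2-fold among the lists below were Vcan, just past it at −1.04, and Cxcl9, with a bound just short of it at −0.97.

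The members' folds also depended on which values were used. In the authors' deposited value table, which subtracts a background and rescales the FGF2 array, Serpina3n was 15.9-fold lower (126.8 with FGF2 and 2012.9 in control) and Cxcl14 5.83-fold lower (121.0 and 705.2). Lyz2 passed 2-fold there, at 2.14-fold lower (112.0 and 239.4). Its bead error on the background-subtracted scale was 0.21 around a log2 ratio of −1.10, an error larger than its distance from 2-fold. Il1rl1 was 3.92-fold higher (14114.3 and 3596.9). Ptx3 had an empty cell for FGF2 and a value of 3477.2 in control, and against the lowest value listed for FGF2 it was at least 52.0-fold lower. That table changes the background and the scaling together. With normexp background correction, an added offset of 50 and quantile normalization, Serpina3n was 9.81-fold lower and Il1rl1 3.43-fold higher. That setting also changes both, so the parts of background and scaling were not separated.

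**Figure D3:**
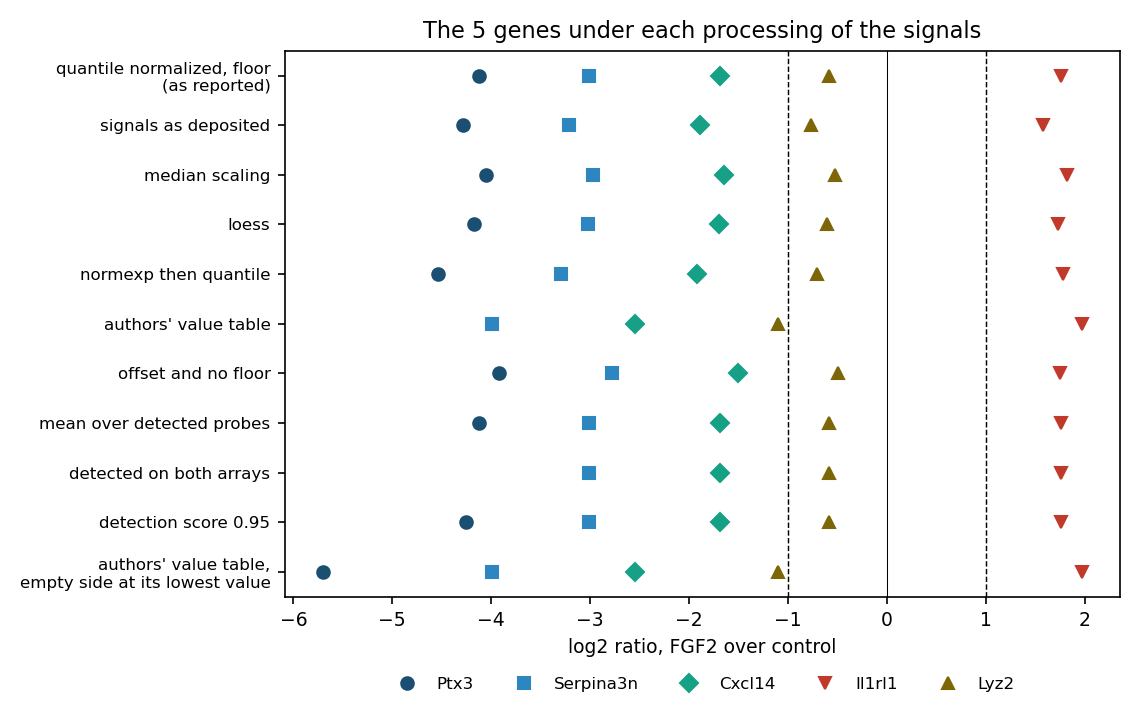
The log2 ratio of FGF2 over control of the 5 genes under each processing of the signals, with dashed lines at 2-fold. Each gene kept its side of 0, Il1rl1 lay between 1.58 and 1.97, and Lyz2 crossed 2-fold with the authors' value table at −1.10.

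By their log2 ratio alone, in this 1 contrast of 2 arrays, the nearest other genes detected on both arrays were Acta2 (smooth muscle actin) and Tgfb3 for Cxcl14, both at −1.68. For Serpina3n they were Timp3 (−2.85), a metalloproteinase inhibitor, and Ccdc80 (−3.18), and for Il1rl1 they were Ass1 (1.75), an enzyme of arginine synthesis, and Sat1 (1.86). No nearest genes are given for Ptx3, whose ratio is a bound.

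Genes with related roles were read from 9 lists, which beside the members hold 266 genes. Of these 88 have a named probe and 34 were detected, of which 1 was at least 2-fold higher and 3 were at least 2-fold lower (median −0.061). That is 11.8% of the 34, against 4.06% of all 3005 named genes. Nothing is read from this share, since the lists were chosen with earlier results of these data known. A gene detected on 1 array only has a bound, and a bound under 2-fold does not show that the gene differed by less. Of 10 other soluble pattern recognition and antimicrobial genes with a named probe none was detected, among them Crp (a short pentraxin), Mbl1 and Ltf (lactoferrin). Of 13 other serpins and acute phase genes Serpina3g and Mt1 (metallothionein 1, at −0.069) were detected, and Saa1, Saa2 and Orm1 were not.

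Beside Cxcl14, 18 chemokine and chemokine receptor genes have a named probe and 6 were detected, with a median of 0.064. The neutrophil chemokine Cxcl1 gave 6231.0 with FGF2 and 6076.8 in control (0.18 ± 0.063), and the monocyte chemokine Ccl2 gave 2271.5 and 1672.5 (0.67 ± 0.081), the highest of the list. Cxcl9, an interferon-induced chemokine, was not detected with FGF2 at 135.4, against 405.7 in control. Its bound was 1.96-fold lower, and it was 4.04-fold lower in the authors' deposited table with the empty side at its lowest listed value.

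Of 8 other genes of the IL-1 family and its receptors with a named probe 4 were detected, with log2 ratios between −0.037 (Irak4, an adaptor kinase) and 0.33 (Il1a, an IL-1 cytokine gene), which are both bounds. Il1rap, which encodes the subunit that pairs with the IL-33 receptor, was not detected, with 178.4 on the FGF2 array and 144.7 on the control array. The ubiquitin ligase gene Traf6 was at −0.0050 ± 0.083 and Tollip, an inhibitor of this pathway, at 0.030 ± 0.069. Il33 has no named probe here.

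Among 9 detected NF-kappaB subunits, inhibitors and target genes the median was 0.074. Ptgs2 (cyclooxygenase 2), detected with FGF2 only, was at least 1.61-fold higher (283.6 and 145.9), and at least 3.26-fold in the authors' deposited table with the empty side filled in the same way. Another Ptgs2 probe was not detected on either array. The gene at least 2-fold lower was Vcam1, an adhesion molecule for leukocytes, at 1105.5 with FGF2 against 4059.1 in control (3.16-fold lower, −1.66 ± 0.052). Of 8 detected genes around gp130 cytokines, STAT3 and C/EBP the median was −0.21. Socs2, a suppressor of cytokine signalling, was 2.82-fold higher (523.7 with FGF2 and 211.8 in control, 1.50 ± 0.064). Stat3 itself was at −0.088 ± 0.058 on its brighter probe and at −0.26 ± 0.079 on its other probe, also detected on both arrays. Cebpb was at −0.069 ± 0.063.

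Of 9 complement genes with a named probe 3 were detected. C1qa and C1qb, genes of the C1q that pentraxin 3 binds, were not. C1ra and C1s1 encode the proteases of the first complement complex. With FGF2 their brightest probes were not detected, at 151.2 and 151.0, against 389.5 and 335.2 in control. The other probes of both genes were not detected on either array. From the brightest probes the bounds were 1.89-fold and 1.64-fold lower. They were 3.80-fold and 2.99-fold lower in the authors' deposited table with empty sides at the lowest listed value. Cd55, which protects cells from complement, was at −0.071 ± 0.075. Of 5 hyaluronan matrix genes 3 were detected. Vcan (versican) was 2.05-fold lower on its brighter probe (426.8 and 1047.6, −1.04 ± 0.066), but at −0.59 over both its probes and −0.96 with an offset and no floor. Tnfaip6, a partner of pentraxin 3 in this matrix, and the hyaluronan receptor gene Cd44 were not detected. Of 4 Toll-like receptor genes only Tlr4 was detected, at 0.24 ± 0.081.

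**Figure D4:**
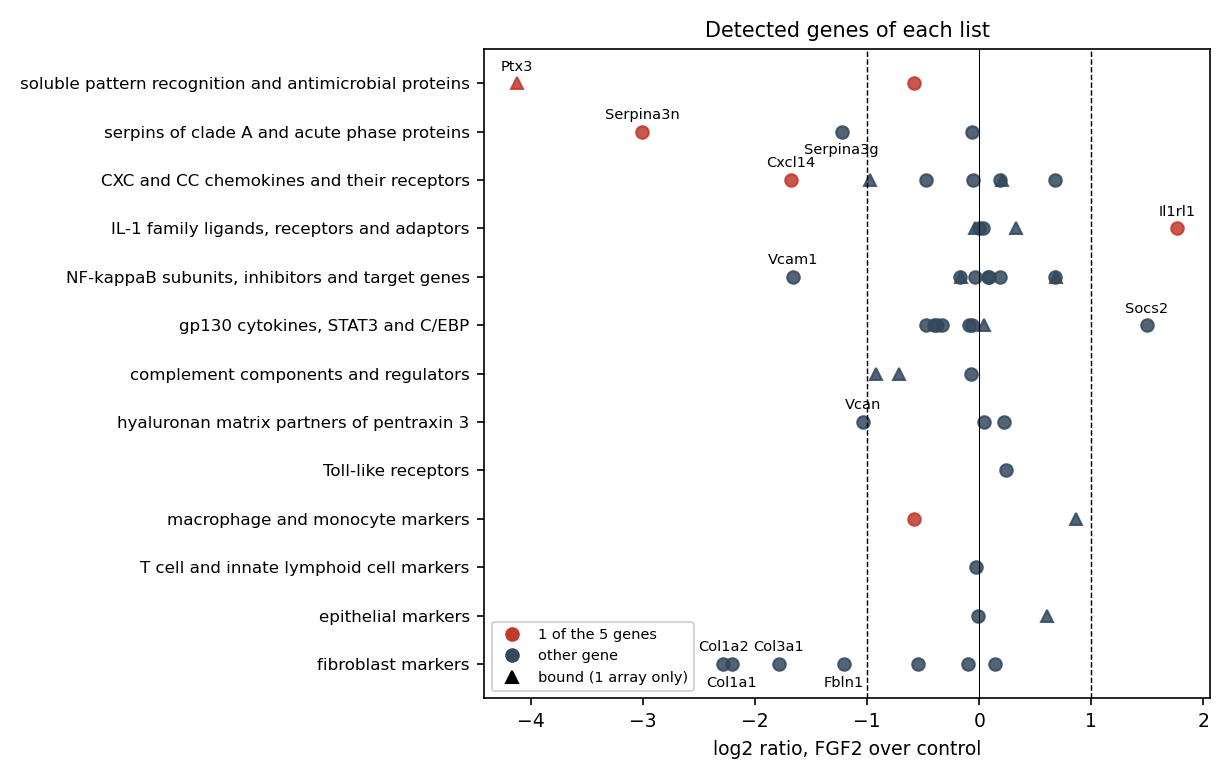
The log2 ratio of FGF2 over control of the detected genes of each list (brightest probe), with the 5 genes in red, triangles for bounds and dashed lines at 2-fold. Beside the members, Serpina3g, Vcam1, Vcan and 4 fibroblast genes were at least 2-fold lower and Socs2 was at least 2-fold higher.

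Markers of leukocytes bear on Lyz2 and Il1rl1, which macrophages and mast cells also express. The 7 marker lists hold 99 genes beside the members, of which 38 have a named probe, so most markers could not be read. Of 27 macrophage and monocyte markers 11 have a named probe, and detection was limited to 2. These were Lyz2 and Cd53, a leukocyte tetraspanin, which gave 318.7 with FGF2 and 176.7 in control and was at least 1.82-fold higher. In the authors' deposited table, with the empty side at its lowest listed value, Cd53 was at least 4.02-fold higher. Cd68, Csf1r, Ptprc, Itgam, C1qa and C1qb were not detected on either array. Lcp1 fell just short of detection in control, with a score of 0.988 at a signal of 192.3, and gave 170.3 with FGF2. The summed signal of the list over 13 probes, background included, was 2015.3 with FGF2 and 2181.0 in control. Of 13 mast cell and basophil markers 3 have a named probe (Mcpt4, Cma1 and Fcer1a), and of 11 neutrophil markers 6. None of these was detected, with sums of 429.7 and 1225.3 with FGF2 and of 436.3 and 1248.6 in control. Of 5 T cell and innate lymphoid markers only Rora was detected (−0.033 ± 0.076), with sums of 870.8 with FGF2 and 930.7 in control.

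Of the other marker lists, neither endothelial marker with a named probe was detected (sums 285.9 with FGF2 and 319.8 in control). The epithelial keratin gene Krt18 gave a bound of 1.52-fold higher (2.94-fold in the authors' deposited table, filled likewise), and Cldn4 was at −0.0078 ± 0.077, while the other 2 of 4 epithelial markers were not detected (sums 826.2 with FGF2 and 766.4 in control). Of 8 named fibroblast markers, 7 were detected on both arrays, of which Dcn (decorin) gave 9883.3 with FGF2 and 11747.6 in control (−0.099 ± 0.070). At least 2-fold lower were 4 of these, Col1a1, Col1a2, Col3a1 and Fbln1, against 2.60% of all 3005 named genes. The rest lay between −0.55 and 0.14. The sum of the list was 19580.9 with FGF2 and 38191.1 in control, of which the Col1a1 probe alone gave 2494.1 and 12827.9. The part of these markers in the members' ratios was not tested.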

How the data were processed

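Per the labels' protocols, 300 ng of column-purified total RNA from 1 FGF2 and 1 control culture was amplified linearly with 6 h of in vitro transcription and labelled with Cy3. BeadStudio 1.0 was used, per the submitters' processing notes, which name no normalization here. Per the file headers, the deposited tables hold an average intensity and a bead standard deviation in intensity units for each probe, and a detection score, a fraction between 0 and 1. The bead deviation was used as deposited and measures spread within an array only. A second deposited intensity, the authors' value table, follows the signals on straight lines. It equals the control signal less 135.4, and for FGF2 has a slope of 1.278 and a background of 132.6. Probes scoring under 0.99 are empty there.

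Signals were quantile normalized (limma 3.58.1 in R 4.3.3), raised to the lowest normalized signal of a detected probe (191.7 for FGF2, 188.4 for control) and log2 transformed. Genes counted if their brightest probe scored at least 0.99 on either array. With detection on 1 array the ratio is a bound, against the higher of that floor and the dim probe's own signal. Identifiers starting scl0 or scl00 were read as NCBI gene numbers through RefSeq's GRCm38.p6 table. Of 9523 such identifiers 8884 (93.3%) matched, and the names rest on this reading. Named are the members, list genes at 2-fold or more (otherwise a list's highest or lowest), and the 2 nearest ratios. Further list genes were named for their role after their values were seen. The members and 16 gene lists were chosen with earlier results of these data known. With 1 array each, no test between the groups was made. 1 gene of these lists is not reported here. The steps were tested on simulated data made from the control array. Changes larger than 2-fold were planted there in probes bright in control, so probes dim in control and changes near 2-fold were not covered.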

Additional observations from a re-analysis of the deposited data

How the results depend on the processing

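The direction of each member was the same under each of 9 alternatives that gave it a value and under 1 more chosen after the data were seen. All of them use the same 2 arrays, and some could not change a ratio. The mean over detected probes repeated every member's ratio, since each has a single detected probe. Requiring detection on both arrays, or a score of 0.95, repeated those of Serpina3n, Cxcl14, Il1rl1 and Lyz2. With signals as deposited the log2 ratio of Ptx3 was −4.29, a bound against the lowest detected signal of the FGF2 array, 184.9. The other log2 ratios were −3.21 for Serpina3n, −1.89 for Cxcl14, 1.58 for Il1rl1 and −0.77 for Lyz2. With normexp and quantile normalization the log2 ratios were −4.53 (a bound), −3.29 and −1.92 for Ptx3, Serpina3n and Cxcl14 and −0.71 for Lyz2. With an offset and no floor they were −3.92, −2.78 and −1.50 for the same first 3 genes. The bound of Ptx3 was −4.05 with median scaling and −4.25 at a detection score of 0.95. In the authors' value table Serpina3n was at −3.99, Cxcl14 at −2.54, Il1rl1 at 1.97 and Lyz2 at −1.10, and Ptx3 at −5.70 where the empty side was set to the lowest listed value, the alternative chosen after the data were seen. Ptx3 has no value where detection on both arrays is required or in the authors' table otherwise.

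Named genes at least 2-fold higher, 44 of 3005 as reported, numbered 28 with signals as deposited. With detection on both arrays required they were 38 of 2639. The authors' value table, with values on both arrays for 2639 genes, gave 114. With empty sides at their lowest value that table gave 138 higher and 158 lower, against 78 lower as reported. The cause was not tested. Of 130 list medians under the alternatives, 76 moved by less than the median bead error of 0.075 and 54 by more. No paired analysis was possible because each group has 1 array. Signals near the lowest detected ones (Ptx3, Serpina3n, Cxcl14 and Lyz2 with FGF2) limit how large a fold can be measured.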

Other observations

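The genes beside each member in the annotation, 5 protein-coding genes on either side, were looked up after the members' values were seen. Of the neighbours of Serpina3n on chromosome 12, 5 of 10 have a named probe and 2 were detected, Serpina3g at −1.23 and Glrx5, a mitochondrial glutaredoxin, at 0.49. Beside Ptx3 on chromosome 3, Ssr3 was at −0.028 and Shox2, a developmental transcription factor, at −0.58. Beside Il1rl1 on chromosome 1, the kinase gene Map4k4 was at 0.73, and the adjacent receptor gene Il1rl2 was not detected, with 129.7 on the FGF2 array and 148.9 on the control array. Beside Lyz2 on chromosome 10, Slc35e3 was at 0.27 and Lyz1 was not detected. Of 2 named neighbours of Cxcl14 on chromosome 13 neither was detected.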
